A study of Mus musculus with 285 samples.

Results

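Mice of an F2 intercross were compared by the RNA level of Tnnt1 in their skeletal muscle. Tnnt1 encodes the troponin T of slow fibres and is used here as a marker of slow fibre content, which was not itself measured. The mice considered were the 160 of 285 whose number lies between 91 and 270. The groups were chosen by the deposited Tnnt1 ratio of each mouse: the 40 highest, here the high-Tnnt1 or high set, were compared with the 40 lowest, the low set, and the 80 mice between entered neither. Numbers 51 to 90 and 271 to 310 were left out of the ranking because Myh7, the slow myosin heavy chain, is low in those runs, and numbers 311 to 362 were left out as well. All mice were F2 offspring of C57BL/6J and C3H/HeJ F1 parents, with the cross made in both directions. They had chow with 4% fat to the age of 8 weeks, then 12 weeks of a Western diet with 42% fat and 0.15% cholesterol, and were killed at 20 weeks after fasting for 12 hours. Genotype, sex and cross direction are given for no single mouse, and the muscle taken is not named. Both females and males were used. There were no treated or control groups, so the only contrast was the rank by Tnnt1, and each sample was hybridised against a pool of RNA from all of the animals.

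Skeletal muscle fibres are slow or fast, and each kind builds its contractile filaments and calcium pump from its own set of protein isoforms. Slow fibres use Myh7 for the thick filament, the troponins Tnnt1, Tnni1 and Tnnc1 and the tropomyosin Tpm3 for the thin filament, the light chain Myl2, and the pump Atp2a2, and they resist fatigue. Fast fibres use other genes for each of these roles, and muscles differ widely in their mixture of the fibres.

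Tnnt1 set the groups. Tnnc1, Myl2 and Tnni1 are the 3 named genes whose values separated the Tnnt1 sets without overlap in at least 1 class of mice described below. They were thus chosen from the same arrays. The promoters of these 4 genes are shown. Each runs 5′ to 3′ over 300 bases, from 250 before to 50 after a transcription start, taken from the RefSeq annotation of GRCm38.p6. For Myl2 and Tnni1, which have 2 starts in the table, the more upstream of those was taken; for Tnni1 the annotated gene itself begins further upstream, at position 135783033 of chromosome 1, and that start is not one of them. Capitals mark every match to CANNTG, the E-box that muscle regulatory factors can bind, which reads alike on both strands.
Tnnt1 (chr7:4515926-4516225, minus strand): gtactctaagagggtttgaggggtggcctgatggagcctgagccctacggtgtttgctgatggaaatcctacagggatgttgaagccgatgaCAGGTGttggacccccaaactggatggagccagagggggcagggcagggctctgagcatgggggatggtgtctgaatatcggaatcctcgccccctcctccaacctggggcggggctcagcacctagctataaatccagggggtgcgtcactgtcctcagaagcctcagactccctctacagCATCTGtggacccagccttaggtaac
Tnnc1 (chr14:31208062-31208361, plus strand): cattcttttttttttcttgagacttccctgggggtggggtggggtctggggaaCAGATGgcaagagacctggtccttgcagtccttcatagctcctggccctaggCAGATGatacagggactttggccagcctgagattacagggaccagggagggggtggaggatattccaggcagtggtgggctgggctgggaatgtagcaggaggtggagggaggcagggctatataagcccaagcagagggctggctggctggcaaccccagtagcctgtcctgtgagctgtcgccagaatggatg
Myl2 (chr5:122092474-122092773, plus strand): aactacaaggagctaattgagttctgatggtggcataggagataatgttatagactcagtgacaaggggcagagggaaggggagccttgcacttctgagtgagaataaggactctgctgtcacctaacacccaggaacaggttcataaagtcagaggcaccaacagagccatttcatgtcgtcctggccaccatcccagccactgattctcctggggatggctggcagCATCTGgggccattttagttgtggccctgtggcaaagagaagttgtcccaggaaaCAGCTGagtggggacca
Tnni1 (chr1:135799171-135799470, plus strand): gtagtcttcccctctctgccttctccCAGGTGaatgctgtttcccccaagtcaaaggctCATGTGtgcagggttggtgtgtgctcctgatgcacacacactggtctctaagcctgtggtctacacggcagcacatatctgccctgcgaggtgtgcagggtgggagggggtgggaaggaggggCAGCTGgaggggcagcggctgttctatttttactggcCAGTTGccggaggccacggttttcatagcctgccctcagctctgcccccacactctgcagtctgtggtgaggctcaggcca
Tnnt1, Tnnc1 and Myl2 each held 2 matches and Tnni1 held 4. CANNTG was present in 72.3% of the 32851 promoters in the table, so most promoters share it. CATTCC, searched on both strands, occurred in Tnnc1 alone among the 4, and in 14.7% of all promoters. A MEF2 motif was found in none of the 4 windows and in 0.557% of all. These matches describe the letters only.

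The deposited ratios, taken to be log10 of the mouse over the pool, are given here as log2, so that a positive value means more RNA in the mouse than in the pool. The lowest Pearson correlation between a pair of arrays was -0.745, and 2.48% of pairs lay under -0.3. The dyes are stated in the labels and the sign is not. Mouse over pool was kept because the mean linear ratio of the Y-linked gene Eif2s3y over all mice was then 0.796, against 23.2 with the sign turned. With the sign turned, the sets would swap names and every difference its sign, while the genes that moved with or against Tnnt1 would be the same. Across the arrays, medians lay between -0.0222 and 0.0173 on the deposited scale. Fold values hold for base 10.

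Tnnt1 was 0.62 at the lowest, 0.92 at the median and 1.40 at the highest in the high set. In the low set it was -3.11, -0.67 and -0.50. The groups were cut from these values, so their distance is a description. At the lower edge, mouse 196 at -0.50 was inside the low set and mouse 225 at -0.48 outside it. At the upper edge, mouse 135 was inside and mouse 245 outside, both at 0.62. Mice 219 at -3.11 and 270 at -1.88 lay apart at the low end.

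The sets were also nearly a division of the mice by Eif2s3y, a gene of the Y chromosome. Its log2 ratio fell into separate ranges, up to -2.53 and from -1.27, which gave 69 Eif2s3y-low and 91 Eif2s3y-high mice. Nearest to the gap lay mouse 154 at -2.53, mouse 155 at -1.27 and mouse 156 at -1.01. Mice 155 and 156, classed Eif2s3y-high, had Neu2 at 0.72 and 0.87 and Cdk19 at -0.86 and -0.92, closer to Eif2s3y-low mice. Both were in the high set cut within their class described below, and mouse 156 was in the pooled high set. The fits were not run without these mice. The high set held 37 Eif2s3y-low and 3 Eif2s3y-high mice, and the low set held 2 and 38. The 80 mice between held 30 Eif2s3y-low and 50 Eif2s3y-high mice. The median of Tnnt1 was 0.64 in Eif2s3y-low mice and -0.34 in Eif2s3y-high mice. The same order was seen in mice outside these numbers, where Tnnt1 was lower in Eif2s3y-high mice by a difference of -1.57 in numbers 51 to 90 (20 against 16 mice, two-sided permutation test with 100000 resamples, p = 2e-05), of -1.75 in numbers 271 to 310 (24 against 16, p = 1e-05, the smallest that these resamples can give) and of -0.58 in numbers 311 to 362 (24 against 25, p = 0.00164). Adjusted over the 3 runs, p was 3e-05, 3e-05 and 0.00164.

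**Figure D1:**
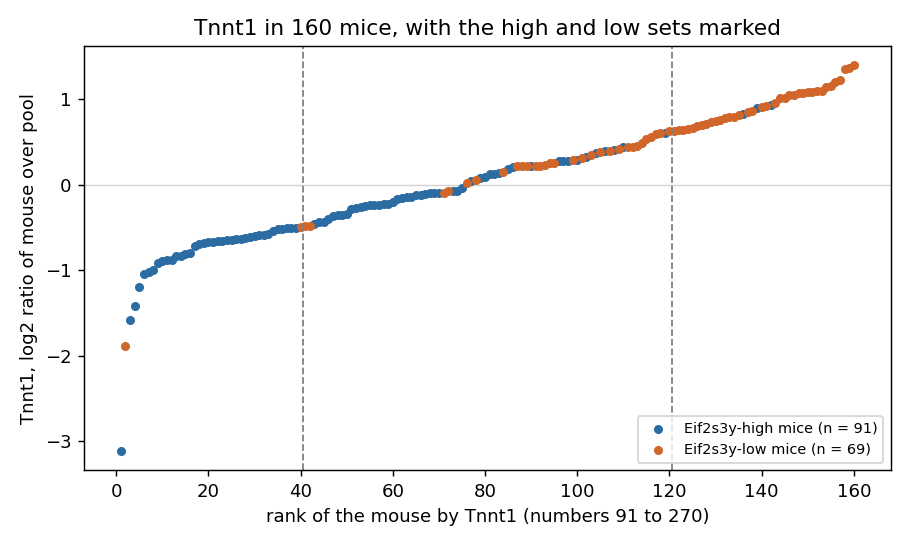
Tnnt1, as the log2 ratio of mouse over pool, in each of the 160 mice ordered by it, with colour for the Eif2s3y class and dashed lines that bound the sets. The lowest set is almost wholly Eif2s3y-high (38 of 40) and the highest almost wholly Eif2s3y-low (37 of 40).

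**Figure D2:**
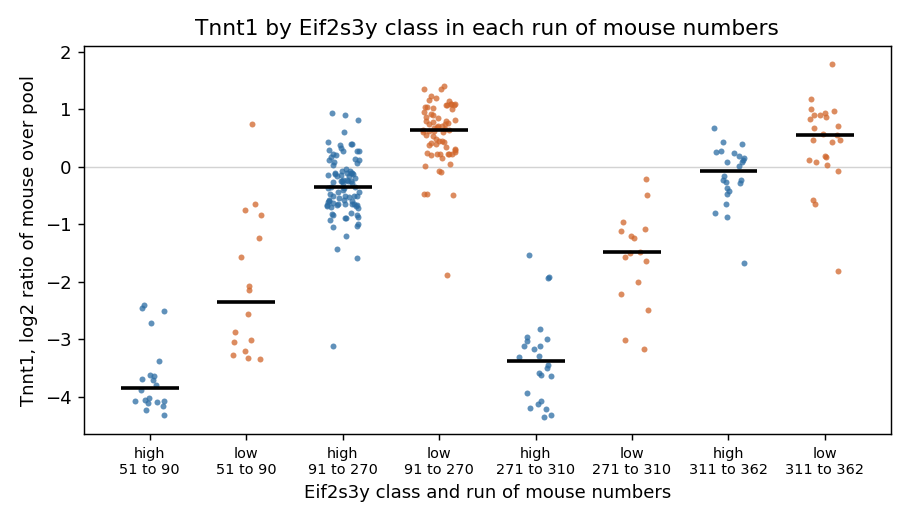
Tnnt1 as the log2 ratio of mouse over pool in all 285 mice, by Eif2s3y class within each run of mouse numbers; points are mice and bars are medians. In each run the median of the Eif2s3y-low mice is above that of the Eif2s3y-high mice, and both classes lie lower in numbers 51 to 90 and 271 to 310.

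Mouse number differed as well: it averaged 159 in the high set and 203 in the low set, a difference of -43.25 (two-sided permutation test, p = 8e-05, 40 against 40 mice). Of the high set, 30 mice had numbers up to 180 and 10 above; of the low set, 12 and 28. The difference had the same sign within Eif2s3y-low mice (-39.4, permutation p = 0.0103) and within Eif2s3y-high mice (-31.6, permutation p = 0.0374). What else the number stands for is not stated in the labels, and its part in the results below was not tested beyond the fits given. Of the pooled calls named below, Jph1, Myog, Nfatc1, Mdh1, Mdh2, Acadl, Thrsp, Cnp, Per2 and Fkbp5 did not pass with a spline of mouse number as covariate (limma, adjusted p from 0.057 for Cnp to 0.48 for Per2).

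Between the pooled sets, 1770 features of 21511 were higher and 1728 lower with high Tnnt1, at an adjusted p under 0.05 by limma with Benjamini-Hochberg adjustment (16.3% called; 8.23% higher and 8.03% lower). A feature is a named gene, with its probes averaged, or an unnamed probe. Because Tnnt1 on the same arrays set the groups, a call is an association with Tnnt1 among these mice. Adding Eif2s3y as a covariate left 39 higher and 29 lower (0.316% called). The sets were nearly a division by Eif2s3y, so this fit can hardly tell Tnnt1 from Eif2s3y. In it, 3166 features (14.7%) still had an unadjusted p under 0.05 by limma. When sets of the same share of mice were instead cut by Tnnt1 within each class (17 against 17 Eif2s3y-low and 22 against 22 Eif2s3y-high mice, class as a covariate), 40 features were higher and 8 lower (0.223% called; 0.186% higher and 0.0372% lower). A slope on Tnnt1 over all 160 mice with class as a covariate called 123 (0.572%). Each class on its own, with fewer mice, called 18 features in Eif2s3y-high mice (0.0837%) and 15 in Eif2s3y-low mice (0.0697%). These within-class sets were chosen after the class composition was seen. Below, each gene has its pooled difference followed by its within-class difference, as log2 high minus low with the standard error. Tnnt1 averaged 0.93 in the pooled high set and -0.84 in the pooled low set. The within-class sets lay closer in Tnnt1, with a difference of 1.29. So the pooled and within-class values of a gene span unlike steps of Tnnt1, and their sizes are not directly comparable. Both fits draw on the same 160 mice, but their sets share only a part. Some mice of the within-class sets were in neither pooled set. Neither fit is an independent repeat of the other. In a whole-muscle extract, fewer fibres of a type and less RNA per fibre cannot be told apart.

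Of the slow sarcomere genes, more than the general share were called higher with high Tnnt1, and most of those called between the pooled sets were also called within class. Of 11 measured members besides Tnnt1, 7 were called higher and 0 lower between the pooled sets, with a median difference of 0.54, against 8.23% higher and a median of 0.0068 over all features. Within class 5 of 11 were called higher and 0 lower, with a median of 0.39, against 0.186% higher and a median of -0.0011 over all features. Of the thin filament, Tnnc1, the calcium-binding troponin C of slow and cardiac muscle, ran from 0.44 through a median of 0.88 to 1.50 in the high set and from -2.94 through -0.75 to -0.28 in the low set. The groups did not overlap. Its difference was 1.76 ± 0.09, a 3.38-fold higher level (limma, adjusted p = 1.66e-30), and 1.30 ± 0.09 within class (limma, adjusted p = 2.53e-19), a 2.47-fold higher level.

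Tnnc1 also separated the sets inside each class. In Eif2s3y-low mice it was 0.78 to 1.50 in the high set, with a median of 1.11, and -1.98 to 0.30 in the low set, with a median of -0.04. In Eif2s3y-high mice the ranges were -0.20 to 0.92 and -2.94 to -0.36. Tnni1, the inhibitory troponin of slow fibres, was 0.19, 0.52 and 1.36 (lowest, median and highest) in the pooled high set and -2.26, -0.45 and 0.20 in the low set, so that the groups met only at their edges. Its difference was 1.12 ± 0.08, and 0.86 ± 0.08 within class (limma, adjusted p = 6.78e-21 and 1.42e-13). Its within-class sets did not overlap in either class, though by a narrow margin in Eif2s3y-low mice, 0.25 at the lowest against 0.23 at the highest. Tpm3, the slow tropomyosin and a mean of 5 probes, differed by 0.54 ± 0.04 and by 0.39 ± 0.04 within class (limma, adjusted p = 1.51e-21 and 4.79e-14).

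Of the thick filament, Myl2, the regulatory light chain of slow and cardiac muscle, was 0.01, 0.95 and 1.68 in the high set and -2.31, -0.85 and -0.17 in the low set, without overlap. It differed by 1.78 ± 0.08, and by 1.23 ± 0.10 within class (limma, adjusted p = 2.68e-32 and 6.80e-17). In all, 4 features of 21511 separated the pooled sets without overlap (0.0186%): Myl2, Tnnc1 and 2 unnamed probes. Within the Eif2s3y-low mice 2 did, Tnnc1 and Tnni1 (0.00930%). Within the Eif2s3y-high mice 4 did, Myl2, Tnnc1, Tnni1 and 1 unnamed probe (0.0186%).

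Myh7, the slow myosin itself, ran from -0.56 through 0.26 to 1.30 in the high set and from -3.43 through -0.57 to -0.07 in the low set, and the groups overlapped. It differed by 1.07 ± 0.11, and by 0.74 ± 0.12 within class (limma, adjusted p = 4.27e-13 and 7.82e-06). Of the classes on their own, Eif2s3y-high mice gave 0.97 ± 0.16 (limma, adjusted p = 0.00029) and Eif2s3y-low mice 0.45 ± 0.15 (limma, adjusted p = 0.46). The slope of Myh7 on Tnnt1 differed between the classes by 0.31, which missed the threshold (limma, adjusted p = 0.27). Myoz2, a Z-disc protein of slow fibres, was higher by 0.50 ± 0.06 between the pooled sets (limma, adjusted p = 3.41e-10). Within class it differed by 0.27 ± 0.07 (limma, adjusted p = 0.09). Csrp3, the muscle LIM protein, was higher by 0.66 ± 0.16 in the pooled sets, and its within-class value of 0.43 ± 0.16 was not called. Actn2, Lmod2, Myh6 and Smyd1 were called in neither fit, with pooled values from -0.16 to 0.15.

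Of 4 measured slow calcium genes, 2 were called higher in each fit, Atp2a2 and Casq2, and 0 were lower, against 8.23% higher over all features between the pooled sets and 0.186% within class. Atp2a2, the slow calcium pump that returns calcium to the sarcoplasmic reticulum, was -0.10, 0.60 and 1.44 in the high set and -1.64, -0.36 and 0.59 in the low set, overlapping in part. It differed by 1.08 ± 0.10 and by 0.81 ± 0.11 within class (limma, adjusted p = 1.16e-14 and 7.99e-08). Casq2, the calcium store protein of slow and cardiac muscle, differed by 0.35 ± 0.04 and by 0.27 ± 0.04 within class (limma, adjusted p = 2.80e-11 and 2.86e-05).

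**Figure D3:**
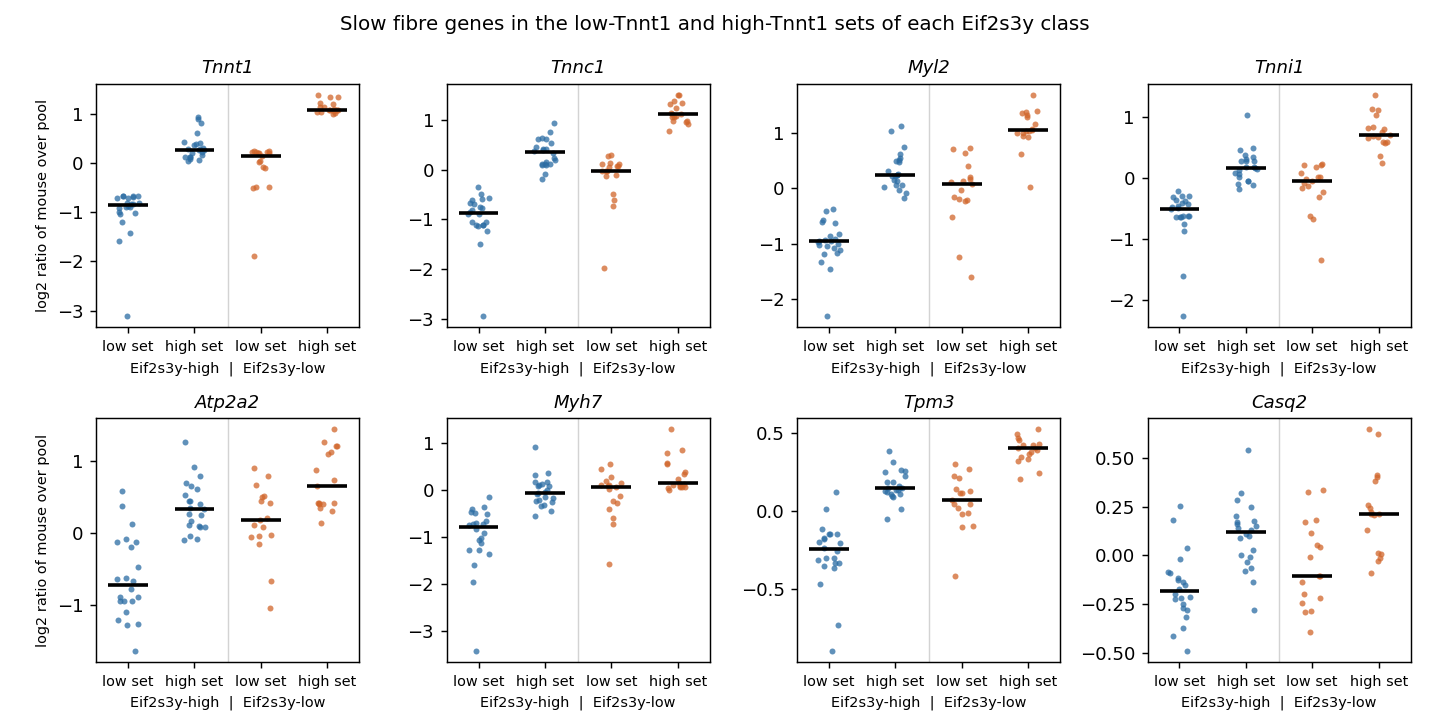
Tnnt1 and 7 slow fibre genes, as log2 ratios of mouse over pool, in the lowest and highest Tnnt1 set of Eif2s3y-high mice (22 each) and of Eif2s3y-low mice (17 each); points are mice and bars are medians. In each gene and class the median of the high set is above that of the low set, and for Tnnc1 and Tnni1 the points of the sets do not overlap in either class.

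Fast sarcomere genes were not called. Of the fast sarcomere list, 3 of 15 genes were measured, and 0 were called in either direction by limma between the pooled sets or within class. Tnnc2, the fast troponin C, differed by 0.11 ± 0.07, Mylpf, a fast light chain, by 0.11 ± 0.07, and Pvalb, the calcium buffer parvalbumin, by 0.08 ± 0.07. The fast myosin genes were not analysed here. Of 8 fast calcium genes, 2 were lower in the pooled sets, Cacng1 by -0.31 ± 0.08 and Jph1 by -0.26 ± 0.07, and 0 within class, against 8.03% and 0.0372% lower over all features.

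Of 22 measured regulators of fibre type, 1 was higher and 7 were lower with high Tnnt1 in the pooled sets, with a median difference of -0.09, against 8.23% higher and 8.03% lower over all features. Within class 0 were called, where 0.223% of all features were. Sox6, a repressor of slow genes, was lower by -0.41 ± 0.08 and Nfatc1, a calcium-responsive activator, by -0.45 ± 0.10, with within-class values of -0.23 ± 0.08 and -0.23 ± 0.10 (limma, adjusted p = 0.33 and 0.44). Myog, a myogenic transcription factor, was the gene that was higher, by 0.51 ± 0.15, and its within-class value was -0.04 ± 0.16. Myf6, of the same family, was lower by -0.33 ± 0.06 and had a within-class value of -0.08 ± 0.06.

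Of 18 LIM domain and strain-sensing genes of the sarcomere, 8 were called higher and 0 lower in the pooled sets, with a median difference of 0.16, against 8.23% higher and 8.03% lower over all features. Within class 2 of 18 were called higher, Fhl2 and Ablim1, against 0.186% over all features. Fhl2, a LIM protein of the sarcomere, differed by 0.31 ± 0.07 and by 0.46 ± 0.08 within class, the larger value (limma, adjusted p = 0.00071 and 9.54e-05). Ablim1, an actin-binding LIM protein, differed by 0.39 ± 0.06 and 0.40 ± 0.06 (limma, adjusted p = 5.85e-07 and 2.92e-06). Cryab, a small heat shock protein, and Ankrd2, a stretch-responsive protein of slow muscle, were higher by 0.45 ± 0.08 and 0.38 ± 0.12 in the pooled sets, and their within-class values of 0.22 ± 0.08 and 0.36 ± 0.12 were not called.

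Metabolic genes often differ between slow and fast muscle. In the pooled sets, more glycolysis and glycogen genes were called lower than the general share, and few genes of the other metabolic lists were called. Over all features 8.23% were higher and 8.03% lower in the pooled sets, and 0.223% were called within class. Of 9 respiratory chain genes 0 were called in either fit, and of 17 fatty acid genes 1 was lower in the pooled sets, Acadl at -0.21 ± 0.05. Of the 8 citrate cycle genes, Mdh1 was higher at 0.14 ± 0.05 and Mdh2 lower at -0.12 ± 0.04. Of 17 glycolysis and glycogen genes 2 were higher and 6 lower. Hk2, which phosphorylates glucose, was lower by -0.38 ± 0.08, Phka1, a phosphorylase kinase subunit, by -0.32 ± 0.06 and Slc16a3, the lactate exporter, by -0.31 ± 0.07. None of these genes was called within class, where the value of Slc16a3 was -0.03 ± 0.07. Of 11 genes of oxidative fibre metabolism, 2 were higher and 0 lower in the pooled sets, and 1 was higher within class. Ldhb, the heart form of lactate dehydrogenase, was the gene of the metabolic lists called in both fits, at 0.53 ± 0.07 and 0.37 ± 0.07 within class (limma, adjusted p = 5.24e-09 and 0.00078).

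Genes outside these lists also moved with Tnnt1 inside the classes; those in this paragraph were named after their values were seen. Ndrg4, of the NDRG family, was -0.59, 0.74 and 1.74 in the pooled high set and -1.74, -0.60 and 0.39 in the low set, and differed by 1.29 ± 0.11 and by 0.92 ± 0.12 within class (limma, adjusted p = 3.30e-17 and 4.98e-08). Cyfip2, a regulator of actin assembly, differed by 1.05 ± 0.09 and 0.54 ± 0.08 within class. Ift81, a protein of transport along cilia, differed by 0.63 ± 0.05 and 0.46 ± 0.05, Ces5a, a carboxylesterase, by 0.68 ± 0.09 and 0.53 ± 0.10, and P3h2, a collagen prolyl hydroxylase, by 0.60 ± 0.08 and 0.48 ± 0.07. Spred2, an inhibitor of Ras signalling, Jam3, a junctional adhesion molecule, and Scube2 were also called within class, at 0.32 ± 0.05, 0.25 ± 0.04 and 0.30 ± 0.06.

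For 2 named genes, Pcp4l1 and Dkk2, the within-class difference was called and the pooled one was not. Pcp4l1, a calmodulin-binding peptide gene, had a pooled difference of 0.29 ± 0.11 (limma, adjusted p = 0.05276), and within class it was higher by 0.66 ± 0.09 (limma, adjusted p = 6.24e-07). In Eif2s3y-high mice its sets were -0.32, 0.48 and 0.90 against -0.82, -0.14 and 0.54, and in Eif2s3y-low mice -0.41, 0.28 and 1.19 against -1.46, -0.52 and 0.26, so the high set's median was above the low set's in both, with overlap. Dkk2, a secreted modulator of Wnt signalling, had a pooled value of 0.27 ± 0.11 (limma, adjusted p = 0.07) and was higher within class by 0.58 ± 0.11 (limma, adjusted p = 0.00047).

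Downward within class, 7 named genes and 1 unnamed probe were called: Smox, Aplp2, Hipk2, Hr, Pabpc1, Nf2 and Porcn. Smox, which encodes spermine oxidase of polyamine breakdown, had the largest of these differences. It was -2.62, -1.12 and -0.33 in the pooled high set and -1.41, 0.42 and 1.30 in the low set, a difference of -1.55 ± 0.11, and -0.44 ± 0.09 within class (limma, adjusted p = 1.01e-21 and 0.00198). Most of the pooled distance lay between the classes: the median of the high and low set was 0.11 and 0.56 in Eif2s3y-high mice, and -1.19 and -0.93 in Eif2s3y-low mice. The high set of Eif2s3y-high mice held mice 155 and 156, near the gap between the classes, with Smox at -0.47 and -0.86. The remaining 6 named genes had within-class differences from -0.28 for Aplp2 to -0.17 for Porcn. With a spline of mouse number in the within-class fit, 3 features were called lower in place of 8, and Aplp2, Hipk2, Nf2, Pabpc1 and Porcn were not called (limma, adjusted p from 0.25 for Porcn to 0.64 for Aplp2).

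Many of the largest pooled differences were not called within class. Odc1, the first enzyme of polyamine synthesis, was lower by -1.44 ± 0.10, with -0.25 ± 0.08 within class (limma, adjusted p = 9.36e-22 and 0.26). Sult1e1, an estrogen sulfotransferase, was lower by -1.75 ± 0.14 with -0.02 ± 0.13 within class, and Cdk19, a kinase of the Mediator complex, by -1.60 ± 0.10 with -0.15 ± 0.08. Cds1, of phospholipid synthesis, Mss51, a mitochondrial protein of muscle, and Dnase1 were lower by -1.73 ± 0.11, -1.69 ± 0.18 and -1.23 ± 0.12, and their within-class values of -0.17, -0.09 and -0.08 were not called. Upward, Neu2, a cytosolic sialidase, was higher by 1.02 ± 0.07 and Ppp1r1a, an inhibitor of protein phosphatase, by 1.02 ± 0.06, with 0.14 ± 0.08 and 0.19 ± 0.07 within class (limma, adjusted p = 0.63 and 0.32). Eif2s3y differed by -4.97 ± 0.33 and Kdm5d, also Y-linked, by -2.96 ± 0.19, with within-class values of 0.09 ± 0.17 and -0.05 ± 0.11.

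**Figure D4:**
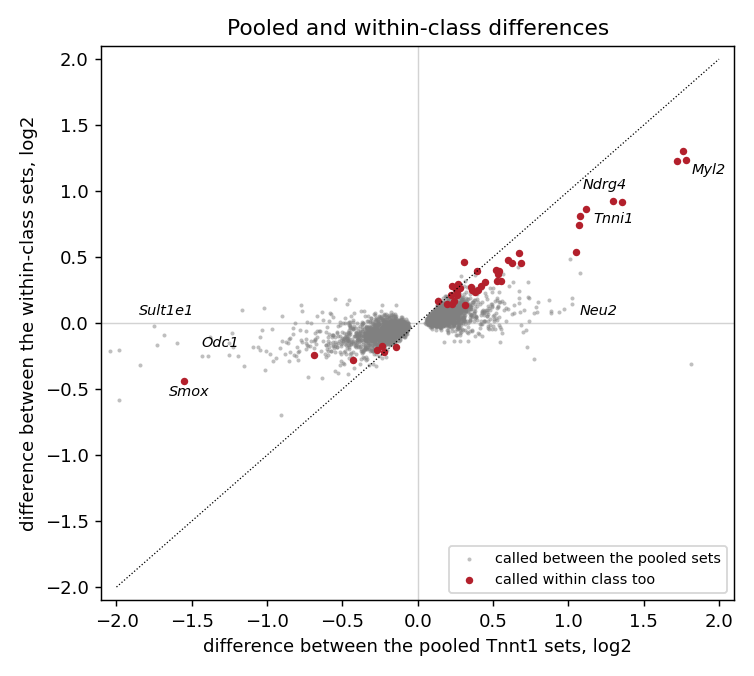
For each feature called between the pooled sets, its log2 difference there (horizontal) against its difference between sets cut within the Eif2s3y class (vertical); red points are those called within class too, the dotted line marks equal differences, and features with larger differences, the Y-linked genes among them, lie off the edges. The slow fibre genes Myl2 and Tnni1 and the gene Ndrg4 lie below the line but well above 0, and Sult1e1, Odc1 and Neu2 lie near 0 on the vertical axis. The within-class sets differ less in Tnnt1 than the pooled sets, so the line does not mark equal change per unit of Tnnt1.

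**Figure D5:**
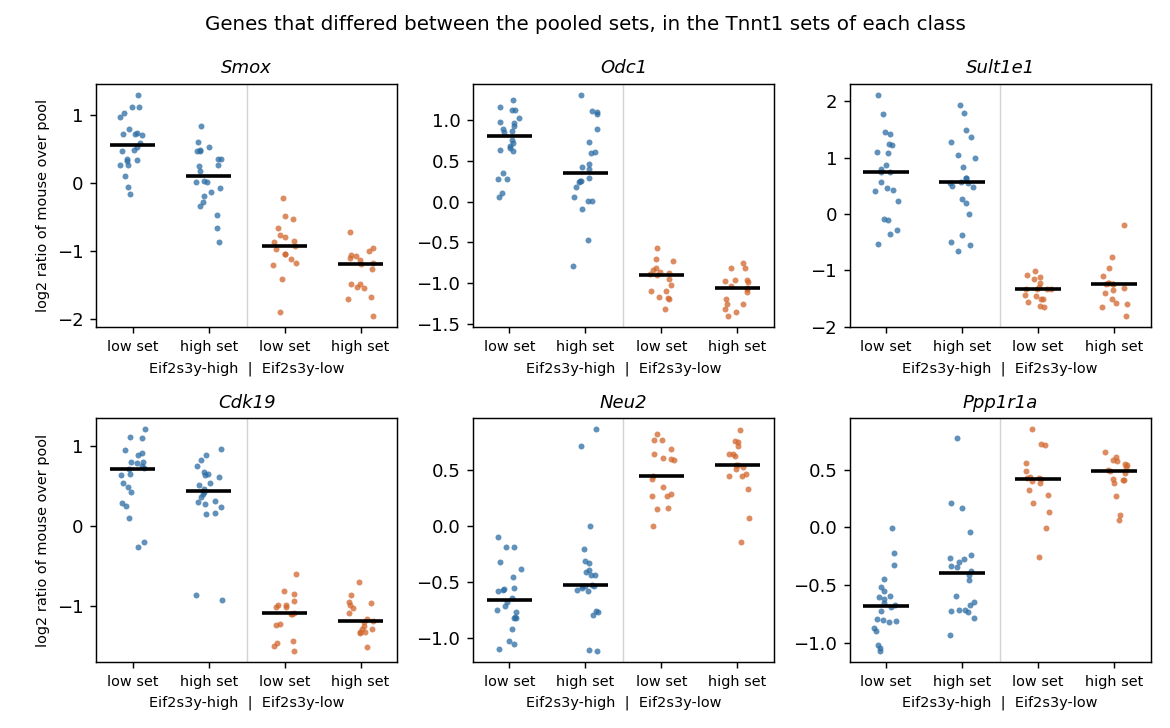
Smox, Odc1, Sult1e1, Cdk19, Neu2 and Ppp1r1a, as log2 ratios of mouse over pool, in the lowest and highest Tnnt1 set of Eif2s3y-high mice (22 each) and Eif2s3y-low mice (17 each); points are mice and bars are medians. The step between the classes is larger than the step between the sets of a class in each of the 6 genes.

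Mice the ranking had not used were then examined. Between Eif2s3y classes in the 125 mice with other numbers, with the run of numbers as a covariate, 3224 of 21511 features were called (15.0%). Of the 3498 features called between the pooled sets, 1599 (45.7%) were called there in the direction of their class, and 10 in the opposite one. Sult1e1 was higher in Eif2s3y-high mice by 1.49 ± 0.10, Odc1 by 1.25 ± 0.06 and Smox by 1.48 ± 0.07, and Neu2 was lower by -0.84 ± 0.05 (limma, adjusted p = 1.08e-28, 7.85e-39, 4.30e-39 and 3.71e-33). The slow genes differed by class in these mice too, Tnnc1 by -1.11 ± 0.14, Myl2 by -1.38 ± 0.14, Tnni1 by -0.53 ± 0.09 and Atp2a2 by -0.75 ± 0.12.

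Along Tnnt1 in the same 125 mice, with run and class as covariates, 309 features were called (1.44%). Of the 48 features called within class in numbers 91 to 270, 27 (56.3%) were called there in the same direction and 0 in the opposite one; of the 3498 pooled calls, 74 (2.11%) and 23. Per log2 unit of Tnnt1, Tnnc1 rose by 0.96 ± 0.02, Myl2 by 0.88 ± 0.04, Myh7 by 1.24 ± 0.05, Atp2a2 by 0.74 ± 0.03, Tnni1 by 0.40 ± 0.04 and Tpm3 by 0.35 ± 0.01 log2 units (limma, adjusted p from 4.68e-91 for Tnnc1 to 5.89e-14 for Tnni1). Fhl2 (0.49 ± 0.04), Pcp4l1 (0.31 ± 0.05), Cyfip2 (0.32 ± 0.05), Ablim1 (0.20 ± 0.03) and Ift81 (0.20 ± 0.03) rose as well. Casq2, at 0.05 ± 0.02, Dkk2, at 0.13 ± 0.05, and Smox, at -0.06 ± 0.04, did not pass (limma, adjusted p = 0.27, 0.20 and 0.49).

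In numbers 311 to 362 alone, sets cut by Tnnt1 among the 49 mice gave 16 features higher and 8 lower (0.112%), and each of these 24 was also a pooled call in the same direction. Among them Tnnc1 differed by 1.60, Tnni1 by 1.42, Myl2 by 1.34, Atp2a2 by 1.22 and Myh7 by 0.94. In the runs of low Myh7, numbers 51 to 90 and 271 to 310, sets cut within each run gave 1168 calls (5.43%), of which 673 were pooled calls in the same direction and 6 in the opposite one. There the slow genes were called too, with a difference of 3.06 for Myl2, where Tnnt1, which set the groups, differed by 2.91. Eif2s3y class was a covariate neither in the fit of numbers 311 to 362 nor in that of the low runs. Tnnt1 differed by class in each of these runs, so class and Tnnt1 cannot be told apart in these calls. The slope on Tnnt1 itself differed between the runs of low Myh7 and numbers 91 to 270 for 976 features (4.54%), and for 405 with class as a covariate (1.88%). In the 80 mice between the sets, 234 features were called along Tnnt1 (1.09%), and 7 with the class as a covariate (0.0325%).

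The association was compared between the lower and the upper numbers. No feature was called as different between numbers 91 to 180 and 181 to 270 in its pooled contrast (limma, 0 of 21511 (0%) at an adjusted p under 0.05). By the same fit, 2283 (10.6%) had an unadjusted p under 0.05. The high set held 30 mice of the lower numbers and 10 of the upper, and the low set 12 and 28. A feature not called here is thus not shown to be alike in both ranges. Within class, Tnnc1 differed by 1.23 ± 0.09 in the lower numbers and 1.33 ± 0.17 in the upper, Myl2 by 1.17 ± 0.11 and 1.26 ± 0.17, and Atp2a2 by 0.89 ± 0.13 and 0.997 ± 0.17. Tpm3 differed by 0.38 ± 0.04 and 0.42 ± 0.06. Tnni1 was less even, at 0.52 ± 0.07 in the lower numbers and 1.085 ± 0.14 in the upper. Whether a within-class difference changed between the ranges was not tested. Myh7 differed by 0.74 ± 0.15 and 0.74 ± 0.20 (limma, adjusted p = 0.02117 and 0.16), and Smox by -0.39 ± 0.16 and -0.45 ± 0.12, called in neither range. Between the classes, the slope on Tnnt1 differed for 8 features (0.0372%), 4 of them named: Ucp1 by 1.42 ± 0.26, Hal by -0.41 ± 0.09, Btnl10 by -0.38 ± 0.07 and Dio3 by -0.36 ± 0.07, as Eif2s3y-high minus Eif2s3y-low, in log2 units per log2 unit of Tnnt1.

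Markers of other cells were counted for whether they were called with Tnnt1, against 8.23% higher and 8.03% lower over all features in the pooled sets and 0.223% called within class, so that 1 or 2 pooled calls in a short list, or 0 within class, lie near the general share. Of 16 macrophage, 13 matrix fibroblast, 5 erythroid, 6 smooth muscle and 6 keratinocyte markers, 0 were called in either direction in either fit. Of 9 tendon markers, Scx was higher by 0.24 ± 0.06 and Thbs4 lower by -0.57 ± 0.08 in the pooled sets, and 0 were called within class. The mean level of the tendon list ran from -1.24 to 0.22 in the high set and from -1.25 to 1.38 in the low set. Of 7 hepatocyte markers F2, prothrombin, was higher, by 1.01 ± 0.28, and its SD among mice of the high set was 1.41. For 11 endothelial markers the counts were 0 higher and 2 lower, for 9 spindle and junction markers 0 and 2, for 13 lymphocyte markers 1 and 0, and for 7 satellite cell markers 1 and 0. Of 8 brown fat markers Dio2 was higher, of 6 white fat markers Car3 was higher and Thrsp lower, and of 6 nerve markers Cnp was lower, all in the pooled sets. None of these was called within class. Their part in the differences was not tested.

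Position factors, which differ between muscles of different body sites, were lower in 6 of 27 cases with 0 higher in the pooled sets, against 8.03% lower and 8.23% higher over all features, including Hoxa11 at -0.59 ± 0.15 and Irx3 at -0.56 ± 0.15. Within class 0 of 27 were called and the list's median was -0.02. In the other mice, Irx3 was higher in the Eif2s3y-high class by 0.84 ± 0.12 (limma, adjusted p = 1.83e-08). Among genes of tissue state in the pooled sets, 2 of 11 immediate early and heat shock genes were lower, 2 of 11 clock genes were lower, and of 9 fasting and atrophy genes 1 was higher and 4 were lower, to be read against the same shares. Among these, Ier3 was lower by -0.45 ± 0.06, Per2 by -0.53 ± 0.19 and Fkbp5 by -0.52 ± 0.12, and within class 0 of the 3 lists were called.

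Mice 219 and 270, the lowest in Tnnt1, moved a few of these counts. Without them, in the pooled sets, 0 citrate cycle genes were higher, so Mdh1 was not called, 0 white fat markers were lower, so Thrsp was not called, and 3 spindle and junction markers were lower in place of 2. Also without them, the slow sarcomere list again had 7 called higher in the pooled sets and 5 within class, and 42 of the 48 within-class features were called again.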

How the data were processed

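The authors' deposited table holds 1 normalised ratio per probe and mouse, read as log10 of mouse over pool; per the labels, each mouse's RNA was labelled with Cy3 and the pool's with Cy5. The array software, normalisation and base are not given in the sources used here, and values end at exactly 2 and -2 on the deposited log10 scale. Of 23560 probes, the 23510 with a value on at least 80% of arrays were kept; 0.0972% of values were missing and were left out of each fit. Of the probes, 13653 carried 1 symbol, 48 several and 9859 none, and 12650 symbols were updated through the Entrez identifier. Averaging the probes of each gene left 11622 named genes beside 9890 unnamed probes. Values were then put on the log2 scale. Tnnt1 had 1 probe and was left out of the counts.

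The sets, 25% of the mice each, were compared with limma 3.58.1 (lmFit, eBayes) in R 4.3.3, with Benjamini-Hochberg adjustment over all features and a threshold of 0.05; slopes and interactions used the same fit. The fits were first tested on simulated data. Figures were drawn with matplotlib. An Eif2s3y-high mouse has a log2 ratio above -2 for that gene; this class and the fits that use it were added after the data were seen. The labels number separate mice, so each mouse is 1 replicate, and precision is limited by how many arrays there are. The named genes were the 12 largest called differences in each direction, the 5 smallest p in each direction, each measured slow and fast sarcomere gene, up to 4 called members of each other list, Eif2s3y and Kdm5d; genes called within class were named after their values were seen. The mice, genes and lists were chosen with earlier results of these data known.

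Alternatives were other fractions of the mice in each set, a slope, ranking by Myh7 and Eif2s3y as a covariate. Further ones were a spline of mouse number with 3 degrees of freedom, scaled arrays, another probe rule, no filter and imputation. Robust regression and the lower and the upper numbers alone were used as well. Arrays of outlying SD, or the 4 with titles ending in (2), were also left out in turn.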

Additional observations from a re-analysis of the deposited data

Results flagged for a closer look

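The slope of a gene on Tnnt1, with Eif2s3y class as a covariate, was compared between numbers 91 to 270 and the runs of low Myh7 (numbers 51 to 90 and 271 to 310). The values below are differences of slopes, in log2 units per log2 unit of Tnnt1, from limma with Benjamini-Hochberg adjustment; a negative value means a smaller slope in the low runs. Over all features, 405 differed. Among slow fibre genes, Myh7 had the steeper slope in the low runs, by 0.724 (adjusted p = 3.43e-33), as did Myoz2, by 0.203 (adjusted p = 0.0208). Tnni1 had the flatter slope there, by -0.326 (adjusted p = 2.09e-10), as did Casq2, by -0.147 (adjusted p = 0.000246). Ndrg4 had a difference of -0.46, Dkk2 of -0.237, G3bp2 of -0.217, Ces5a of -0.209, Wdr78 of -0.172, Ift81 of -0.159, Cyp2c29 of -0.143 and Spred2 of -0.106. Ppp1r1a differed by -0.214. Upward, Thbs4 differed by 0.337, Dnase1 by 0.332, Cds1 by 0.331, Thrsp by 0.213, Aplp2 by 0.149 and Pabpc1 by 0.134. Within a class, the SD of Tnnt1 was 0.53 (Eif2s3y-low) and 0.57 (Eif2s3y-high) in numbers 91 to 270, 1.23 and 0.62 in numbers 51 to 90, and 0.82 and 0.76 in numbers 271 to 310, and the part of this spread in the differences was not tested.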

How the results depend on the processing

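Between the pooled sets, 1770 features were higher and 1728 lower; the counts were 1111 and 1105 with a spline of mouse number, 1038 and 1123 in numbers 91 to 180 alone, 225 and 199 in numbers 181 to 270 alone, 39 and 29 with Eif2s3y as a covariate, 92 and 31 for the slope on Tnnt1 with class, 40 and 8 within class, 17 and 1 in Eif2s3y-high mice alone and 15 and 0 in Eif2s3y-low mice alone (by limma, the last with 1512 features at an unadjusted p under 0.05). Fewer mice entered the number ranges and the single classes. The within-class counts of 40 and 8 became 98 and 35 with sets of 33.3% of the mice, 92 and 31 with a slope, 90 and 42 with robust regression, 880 and 313 when Myh7 replaced Tnnt1, 15 and 0 in numbers 91 to 180, 22 and 2 in numbers 181 to 270, 17 and 1 in Eif2s3y-high mice and 15 and 0 in Eif2s3y-low mice; the lower count alone became 3 with sets of 20%, 3 with the spline and 14 without arrays of outlying SD. The cause of these moves was not tested. Of the 48 within-class features, 33 were called again with the spline, 35 with sets of 20% and 30 with Myh7 in place of Tnnt1; Aplp2, Hipk2, Nf2, Pabpc1 and Porcn were lost with the spline. With class as a covariate the calls along Tnnt1 in the 80 mice between the sets went from 234 to 7, and those that differed from the low runs from 976 to 405.

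Signs turned as follows. With Eif2s3y as a covariate, Cyp1a1 was -0.26, Myog -0.12, Myf6 0.021 and Irx3 0.17. In Eif2s3y-high mice alone, F2 was -0.014, Eif2s3y 0.066, Kdm5d 0.045, Mss51 0.090, Itgad 0.22, Smyd1 0.055, Jph1 0.048, Myog -0.23, Mdh2 0.014, Fbp2 -0.043, Cnp 0.00077 and Eif4ebp1 0.015. In Eif2s3y-low mice alone, Eif2s3y was 0.12, Sult1e1 0.091, Hk2 0.031, Fbp2 -0.14, Car3 -0.10, Irx3 0.36, Cdh15 -0.049, Ier3 0.098 and Nr1d1 0.086. Within class, Eif2s3y was 0.089, Itgad 0.098, Myog -0.042, Fbp2 -0.087, Cdh15 -0.017 and Ier3 0.011. For the slope with class, Eif2s3y was 0.083, Itgad 0.0020, Myog -0.023, Fbp2 -0.039, Irx3 0.070, Cdh15 -0.0088, Nr1d1 0.026 and Eif4ebp1 0.0032. With Myh7 in place of Tnnt1, Flt1 was 0.037 and Calu -0.051; in numbers 91 to 180, Lmod2 was -0.015 and Calu -0.024; in numbers 181 to 270, Pvalb was -0.025. Each of these values had an adjusted p above 0.05. Another choice of Tnnt1 probe was not run, since Tnnt1 has 1 probe. Signal over background was not analysed here.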

Other observations

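Ranking the same mice by Myh7 within each Eif2s3y class, in place of Tnnt1, gave sets that shared 17 of 39 mice at the high end and 23 of 39 at the low end with the Tnnt1 sets. By limma, 880 features were then higher and 313 lower, and among the higher were 444 named genes. The slow genes led together with genes that Tnnt1 had not called within class: Myl2 was higher by 0.90 ± 0.12, Tnnt1 by 0.89 ± 0.12, Tnnc1 by 0.89 ± 0.12 and Atp2a2 by 0.88 ± 0.10, beside F2, prothrombin, by 0.95 ± 0.26, Egr1, an immediate early gene, by 0.59 ± 0.18 and Cxcl1, a chemokine, by 0.51 ± 0.14. Downward, Gbp2b, an interferon-induced GTPase, was at -0.96 ± 0.32 and Jaml, an adhesion molecule of leukocytes, at -0.47 ± 0.13. In the sets cut by Tnnt1 the within-class values were 0.07 for Egr1, 0.19 for Cxcl1 and -0.84 for Gbp2b, and none was called. The SD over the features of an array ran from 0.175 to 0.605 in the high-Myh7 set, with a median of 0.281, and from 0.201 to 0.485 in the low one, with a median of 0.275. Myh7 itself was used for this ranking, and the genes were named after their values were seen.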
